A study of Homo sapiens with 6 samples.

Results

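The immunoproteasome and peptide-trimming genes are 7 of the 60606 genes in the deposited table. Matched by gene name, they are PSMB8, PSMB9, PSMB10, PSME1, PSME2, ERAP1 and ERAP2. They were chosen with earlier results of these data known. All 7 were found and passed the filter of a mean of at least 1 TPM, as did 14140 genes in all. Levels are in TPM, which corrects a gene's reads for its length and scales each sample to nearly the same total (992259 to 994773 in irradiated and 998020 to 998569 in control tumors). RNA was sequenced from 3 irradiated and 3 control tumors that MDA-MB-231 cells, a human breast cancer line, formed with Matrigel under the skin of NOD/SCID/IL2Rγ-null (NSG) mice. This strain lacks T, B and natural killer cells but keeps other leukocytes, such as macrophages and neutrophils. Irradiated tumors received a single local dose of 10 Gy of X-rays at about 800 mm3 and were taken 3 days later, and control tumors received none. No volume or day is recorded for the controls, the age of the mice is not given, and the cells of both groups are called wild type. The labels do not say that each tumor came from its own mouse, so a p-value here covers the spread among these tumors, which may be technical.

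The proteasome is a barrel of protein subunits that cuts ubiquitin-tagged proteins into peptides. Interferons induce 3 catalytic subunits, encoded by PSMB8, PSMB9 and PSMB10, which take the places of the constitutive subunits PSMB5, PSMB6 and PSMB7 in newly built particles and favour peptides that bind HLA class I. PSME1 and PSME2 encode the subunits of PA28, a cap that opens the barrel and is also induced by interferon gamma. ERAP1 and ERAP2 are aminopeptidases of the endoplasmic reticulum that trim peptides before they are loaded onto class I molecules.

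The start-site windows of these genes are given first because most share a short sequence. A window is 250 bases before to 50 bases after a start site in RefSeq (GRCh38.p14), and the 7 genes have 10 windows. Both strands were searched for the core of the interferon-stimulated response element, taken as 2 copies of GAAA with any 2 bases between them, and 6 of the 7 genes had a match in at least 1 window. Of all 35116 windows 3.57% held a match, and of the 27305 genes with a window 4.38% did. Each line below shows 30 bases read along the strand of its gene, with the matched bases in capitals. Capitals that begin with TTTC are a match on the opposite strand.
PSMB8 (chr6:32844032-32844061, minus strand): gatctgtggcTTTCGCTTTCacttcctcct
PSMB10 (chr16:67936852-67936881, minus strand): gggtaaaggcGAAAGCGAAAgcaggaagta
PSME1 (chr14:24136189-24136218, plus strand): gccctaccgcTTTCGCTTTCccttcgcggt
PSME2 (chr14:24146619-24146648, minus strand): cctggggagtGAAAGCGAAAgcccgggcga
ERAP1 (chr5:96807924-96807953, minus strand): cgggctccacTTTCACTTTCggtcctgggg
ERAP2 (chr5:96876460-96876489, plus strand): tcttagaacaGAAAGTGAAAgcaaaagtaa
TAP1 (chr6:32853816-32853845, minus strand): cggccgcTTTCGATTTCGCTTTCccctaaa

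PSMB8, PSMB10, PSME1 and PSME2 carried the same 10 letters, GAAAGCGAAA, which were found in 0.0997% of all windows and were picked after the matches were seen. ERAP1 and ERAP2 carried GAAAGTGAAA. The matches lay close to a start site, from 30 bases before it in ERAP2 to 14 bases after it in PSME1. The single PSMB9 window held no match. TAP1, which encodes a subunit of the peptide transporter, lies head to head with PSMB9, with 488 bases between their start sites. It is shown because its window held 2 overlapping matches in that interval, the nearer of which began 354 bases from the PSMB9 start site. The core of the gamma-activated site, TTCNNNGAA, was found in 7.66% of windows, among the 7 genes in PSMB8 alone, and also in windows of TAP1 and PSMB5. PSMB6 and PSMB7 had no window in the table used. A match is a description of the letters and not a shown binding site.

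**Figure D1:**
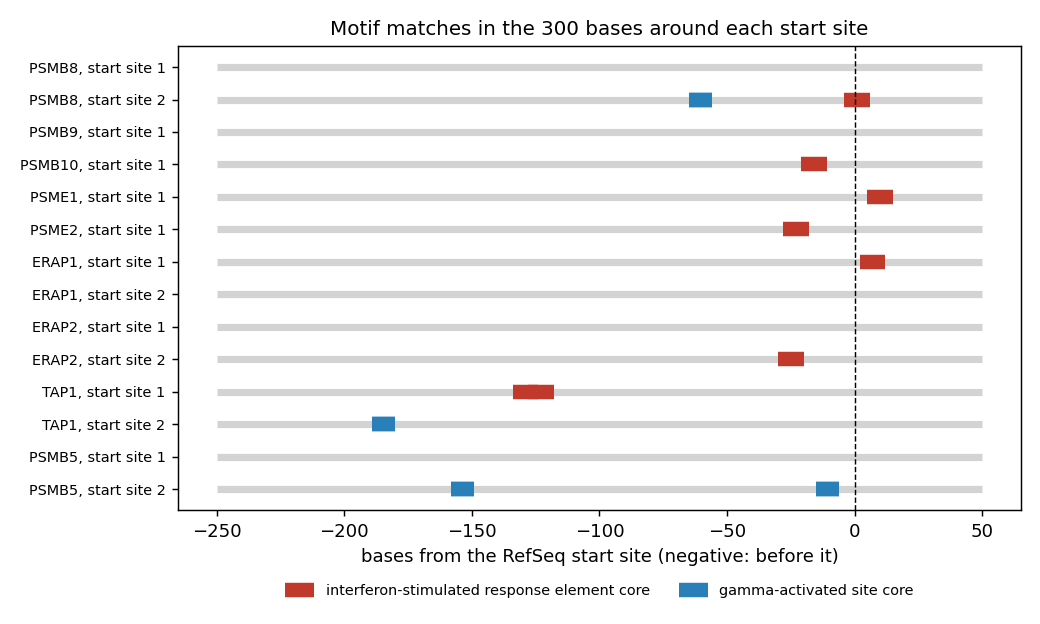
Positions of motif matches relative to each RefSeq start site, in bases, with 1 grey bar for each 300-base window. Red marks the interferon-stimulated response element core and blue the gamma-activated site core. Of the 7 genes, 6 have a red mark within 30 bases of a start site, PSMB9 has none, and TAP1 has overlapping marks 134 to 119 bases before its start.

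PSMB9 rose in the irradiated tumors, and of the 7 genes it was the only one past the threshold, an adjusted p under 0.05 in limma over all 14140 genes. Of all tested genes 1.37% rose and 2.98% changed in either direction. All 7 had a log2 fold change above 0, against 44.3% of all tested genes, with a median of 0.57, against -0.06 over all tested genes. Here and below, a fold change is the irradiated mean minus the control mean of log2(TPM + 1). In 5 of the 7 genes, namely PSMB8, PSMB9, PSMB10, PSME1 and PSME2, every irradiated tumor was above every control tumor, as in 11.6% of all tested genes. The groups did not overlap in either direction in 26.6% of all tested genes. ERAP1 and ERAP2 overlapped between the groups. Because the 7 genes were chosen with earlier results of these data known, these shares are a description and not a test of the set.

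PSMB9 encodes the inducible subunit that replaces PSMB6, and its gene (ENSG00000240065) lies on chromosome 6 from 32844136 to 32859585 (GRCh38). This GENCODE span begins within PSMB8 and runs across TAP1 (32845209 to 32853978). The RefSeq start site used for the window above is a different one, at 32854192. PSMB9 was at 144, 112 and 103 TPM in the irradiated tumors, against 49.7, 52.5 and 68.4 TPM in the control tumors. The lowest irradiated tumor was thus well above the highest control. The mean was 119 ± 21.4 TPM in irradiated and 56.8 ± 10.1 TPM in control tumors (SD, n = 3 each), a log2 fold change of 1.06 (95% interval 0.64 to 1.47, limma adjusted p = 0.0251). Dropping control tumor 1, or irradiated tumor 1, 2 or 3, ended the call, with an adjusted p of 0.0540 to 0.0904. So did testing every gene with no filter on low values (0.0840), a variance prior without trend (0.0529), a replicate block (0.0652) and dropping tumor 2 of both groups (0.0925).

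PSMB8 encodes the subunit that replaces PSMB5, and its span on chromosome 6, from 32840717 to 32844703, overlaps the start of the PSMB9 span. The level of PSMB8 was 214, 182 and 185 TPM in irradiated tumors, against 113, 115 and 143 TPM in controls (log2 fold change 0.65, 95% interval 0.32 to 0.98, limma adjusted p = 0.0547). PSMB10, on chromosome 16 from 67934502 to 67937087, encodes the subunit that replaces PSMB7. It was at 95.3, 83.8 and 83.7 TPM in irradiated tumors and at 58.2, 62.2 and 55.2 TPM in controls (0.57, interval 0.27 to 0.87, adjusted p = 0.0571). In both genes the groups were apart and the intervals lay above 0, while the adjusted p stayed just over 0.05. Irradiated tumor 1 had the highest level of all 3 inducible subunits.

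Exons of PSMB8 overlap PSMB8-AS1, a noncoding RNA of the other strand, over 20.6% of their length, and whether counting used strand is not given in the sources used here. PSMB8-AS1 was at 9.26, 6.27 and 5.71 TPM in irradiated tumors, against 3.15, 4.15 and 3.65 TPM in controls (0.78, limma adjusted p = 0.110). Its level was low beside that of PSMB8 in every tumor. PSMB8 and PSMB9 share 139 exonic bases on opposite strands, and PSMB9 shares 174 with PSMB8-AS1 on its own strand. PSMB10 shares 34.8% of its exon length with a protein-coding gene of the same strand, ENSG00000261884. That gene was at 0.43, 1.06 and 1.01 TPM in irradiated tumors, against 1.91, 0.61 and 1.85 TPM in controls.

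**Figure D2:**
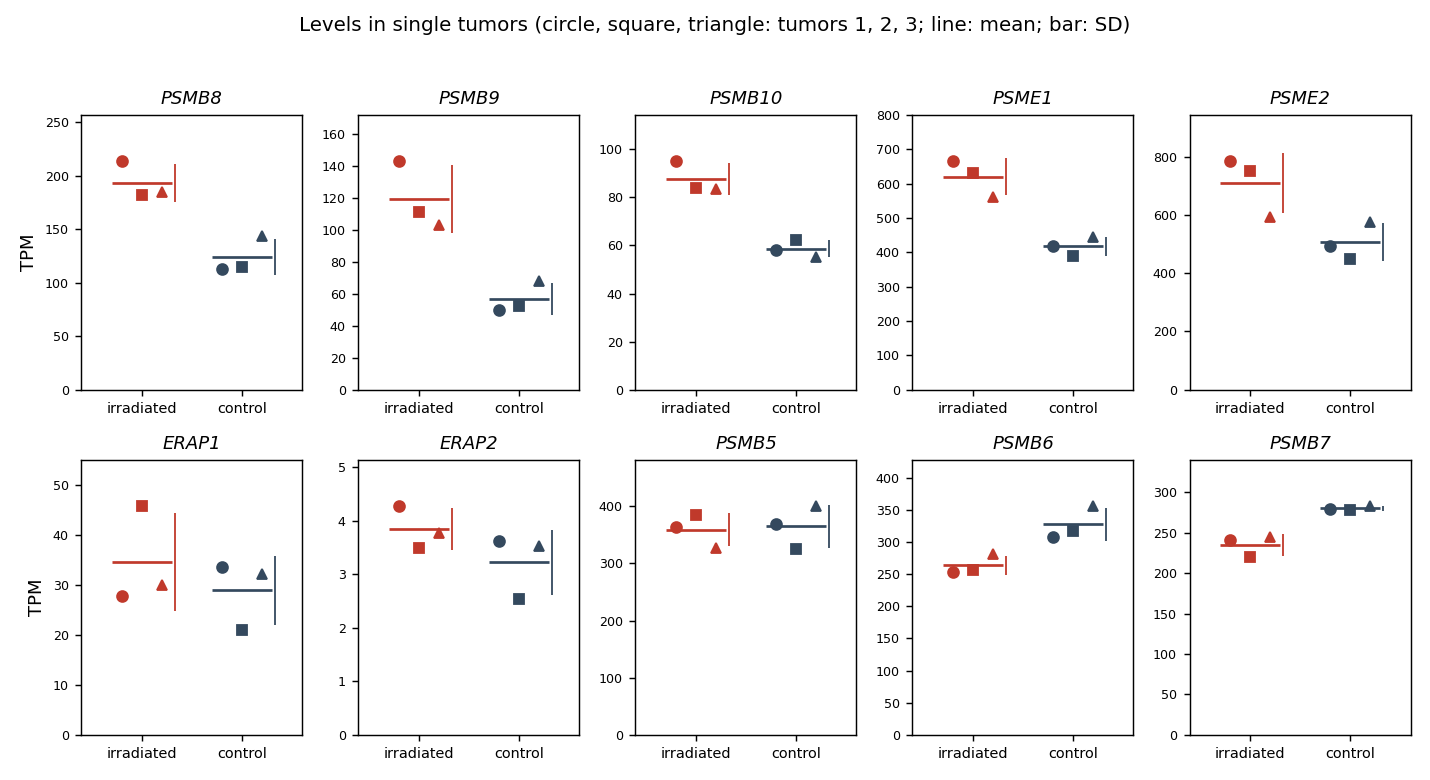
TPM of the 7 genes and of the 3 constitutive catalytic subunits in single tumors, irradiated left and control right. Horizontal lines are means and vertical bars SD (n = 3). PSMB9 lies at 103 to 144 TPM in irradiated and 49.7 to 68.4 TPM in control tumors, while PSMB5 overlaps between the groups.

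The constitutive subunits had fold changes below 0, and 0 of the 3 passed in limma, 1 of them with an unadjusted p under 0.05, a limit that 20.5% of all tested genes met. In 15.0% of all tested genes every irradiated tumor was below every control tumor, as it was in PSMB6 and PSMB7. PSMB6 was at 254, 257 and 281 TPM in irradiated tumors, all below the controls at 308, 318 and 356 TPM (log2 fold change -0.31, limma adjusted p = 0.198). PSMB7 was at 241, 220 and 245 TPM in irradiated tumors, likewise below the controls at 279, 278 and 283 TPM (-0.25, adjusted p = 0.251). PSMB5 overlapped between groups, at 364, 385 and 328 TPM in irradiated and 369, 326 and 401 TPM in control tumors. Its fold change was -0.02 (interval -0.32 to 0.28, adjusted p = 0.943), and was above 0 with 2 of the 3 other scalings (0.03 with medians of ratios and 0.02 without mitochondrially encoded and ribosomal protein genes).

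The ratio of an inducible subunit to the subunit it replaces is taken within a tumor and does not depend on the TPM total. PSMB9 over PSMB6 was 0.565, 0.434 and 0.366 in irradiated tumors, against 0.161, 0.165 and 0.192 in controls, a ratio 2.60-fold higher on average. PSMB10 over PSMB7 was 0.396, 0.381 and 0.342 in irradiated tumors and 0.209, 0.224 and 0.195 in controls (1.78-fold higher). PSMB8 over PSMB5 was 0.588, 0.473 and 0.564 in irradiated tumors, against 0.307, 0.352 and 0.358 in controls (1.59-fold higher). No irradiated tumor overlapped a control in any of these ratios. For PSMB9 over PSMB6 and PSMB10 over PSMB7 the levels above fixed this. In every irradiated tumor the inducible gene was above, and the constitutive gene below, all controls. Part of the higher ratio thus lies in lower PSMB6 and PSMB7 (log2 fold changes -0.31 and -0.25). Exact two-sided permutation tests gave p = 0.1 for each, and 0.150 adjusted over the 6 ratios tested. This is the smallest unadjusted p that 3 against 3 tumors allow. It follows from the lack of overlap, so for PSMB9 over PSMB6 and PSMB10 over PSMB7 it adds nothing to the levels.

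Summed over all 3 pairs, the inducible subunits made up 34.5%, 30.4% and 30.3% of the TPM of the 6 catalytic subunit genes in irradiated tumors, against 18.8%, 19.9% and 20.4% in controls. The mean share was 31.7% ± 2.40 in irradiated and 19.7% ± 0.819 in control tumors (SD, n = 3 each). The constitutive sum was 854 to 862 TPM in irradiated and 922 to 1041 TPM in control tumors, and the inducible sum 372 to 453 TPM in irradiated and 221 to 267 TPM in control tumors. These are shares of RNA and not of assembled particles. In such bulk samples, a change in the number of cells and a change in RNA per cell cannot be told apart.

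**Figure D3:**
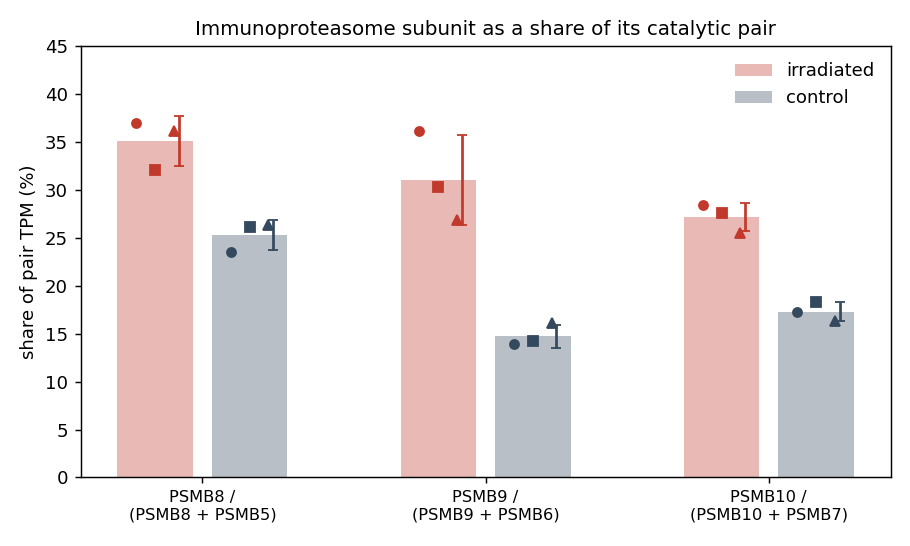
Inducible subunit as a percentage of the TPM of its pair in irradiated (red) and control (grey) tumors. Bars are means, whiskers SD (n = 3), and circles, squares and triangles are tumors 1, 2 and 3. The PSMB9 share is 26.8% to 36.1% in irradiated and 13.9% to 16.1% in control tumors, and no pair overlaps between the groups.

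Ratios were also taken between genes of the set. PSMB9 over PSMB8 was 0.670, 0.613 and 0.557 in irradiated tumors and 0.438, 0.457 and 0.477 in controls, 1.34-fold higher without overlap (exact permutation p = 0.1, two-sided, n = 3 each). PSMB9 was above PSMB10 in all 3 irradiated tumors and in control tumor 3, and below it in control tumors 1 and 2.

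PSME1 and PSME2 were the most abundant of the 7 genes and lie close together on chromosome 14, from 24136158 to 24138967 and from 24143362 to 24147570. PSME1 was at 667, 632 and 561 TPM in irradiated tumors, against 418, 390 and 445 TPM in controls (log2 fold change 0.57, interval 0.29 to 0.85, limma adjusted p = 0.0515). PSME2 was at 787, 752 and 594 TPM in irradiated tumors and at 495, 447 and 577 TPM in controls (0.49, interval 0.13 to 0.84, adjusted p = 0.131). Irradiated tumor 3 was the lowest irradiated tumor for both, and for PSME2 it lay just above control tumor 3. The 2 genes kept nearly the same proportion in all 6 tumors. PSME1 over PSME2 was 0.848, 0.841 and 0.945 in irradiated tumors and 0.846, 0.872 and 0.772 in controls, and these overlapped (difference 0.08 on the log2 scale, exact permutation p = 0.5). Of other proteasome caps, PSME3, which forms a nuclear cap, was at 89.6, 101 and 98.5 TPM in irradiated tumors and at 147, 94.4 and 157 TPM in controls (-0.43, limma adjusted p = 0.271). PSME4, another nuclear activator, was at 30.3 ± 2.22 TPM in irradiated and 34.3 ± 3.89 TPM in control tumors (-0.17, limma adjusted p = 0.553).

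The trimming enzymes overlapped between the groups. ERAP1, on chromosome 5 from 96760810 to 96808100, was at 27.9, 45.9 and 30.1 TPM in irradiated tumors and at 33.6, 21.0 and 32.3 TPM in controls (log2 fold change 0.25, interval -0.32 to 0.81, limma adjusted p = 0.607). Its highest value was in irradiated tumor 2 and its lowest in control tumor 2, and without both of these tumors its fold change was -0.18. ERAP2, its neighbour from 96875939 to 96919716, was at 4.28, 3.5 and 3.77 TPM in irradiated and 3.62, 2.53 and 3.52 TPM in control tumors (0.21, interval -0.29 to 0.70, adjusted p = 0.621). ERAP2 was the least abundant of the 7 genes, and ERAP1 over ERAP2 ranged from 6.52 to 13.1 in irradiated and from 8.32 to 9.28 in control tumors (exact permutation p = 1.00). LNPEP, a related aminopeptidase of endosomes and the next gene along, was at 7.29 ± 0.805 TPM in irradiated and 6.70 ± 1.70 TPM in control tumors (SD, n = 3 each).

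**Figure D4:**
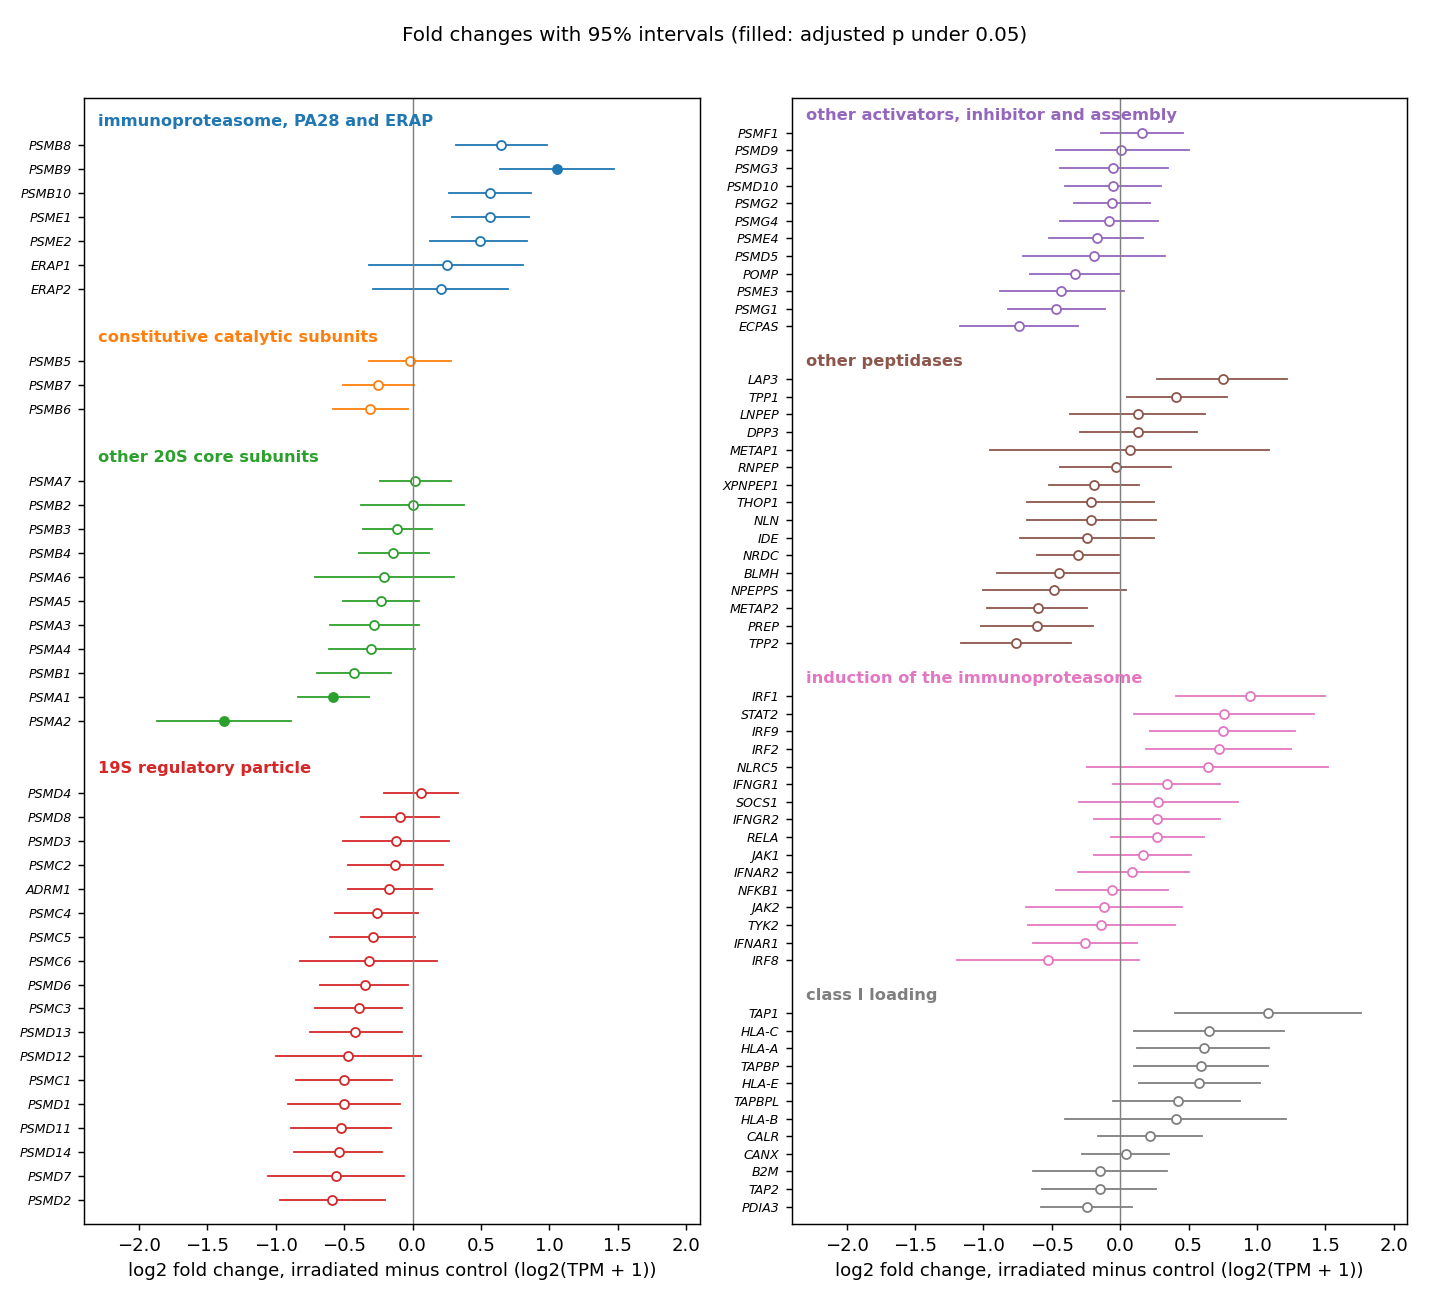
Log2 fold changes (irradiated minus control, log2(TPM + 1)) with 95% limma intervals for the genes of 8 gene groups, less 1 gene of the induction group; filled points passed an adjusted p of 0.05. The intervals of PSMB8, PSMB9, PSMB10, PSME1 and PSME2 lie above 0. The fold changes of 17 of 18 genes of the regulatory particle and 9 of 11 other core genes lie below 0. So do those of 7872 of all 14140 tested genes.

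The other proteasome genes were mostly lower. Of 11 remaining subunits of the 20S core, 2 fell, 0 rose and 9 had a fold change below 0, with a median of -0.23 beside -0.06 over all tested genes. Of all tested genes 1.61% fell, and 7872 of the 14140 had a fold change below 0. PSMA1, an outer-ring subunit, fell to 133 ± 1.34 TPM in irradiated tumors, against 200 ± 9.90 TPM in controls (-0.58, limma adjusted p = 0.0370). PSMA2, of the same ring, was at 51.2, 52.0 and 30.3 TPM in irradiated tumors, against 108, 125 and 110 TPM in controls (-1.38, adjusted p = 0.0178), and shares exons with a read-through gene described in the closing section. PSMA7 had the highest fold change of this group (0.02), below 0 with quantile normalization (-0.03). PSMA1 lost its call on dropping irradiated tumor 1, 2 or 3 or control tumor 1 or 3 (adjusted p 0.0917 to 0.142), and with medians of ratios (0.0647), without trend (0.0952) or with a replicate block (0.112). PSMA2 lost its call on dropping control tumor 1 (0.0666) or 3 (0.0610). Both lost it with no filter on low values (0.0622 for PSMA1 and 0.0737 for PSMA2) and without tumor 2 of both groups (0.0910 for PSMA1 and 0.0624 for PSMA2).

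For the counts that follow, 7872 of the 14140 tested genes had a fold change below 0. In the 19S regulatory particle, which recognises and unfolds tagged proteins, 0 of 18 genes passed in limma. Of the 18, 9 had an unadjusted p under 0.05 (20.5% of all tested genes did) and 17 had a fold change below 0 (median -0.37). Their range ran from PSMD2, a scaffold subunit at 364 ± 59.6 TPM in irradiated and 547 ± 87.6 TPM in control tumors (-0.59, adjusted p = 0.105), to the ubiquitin receptor PSMD4 at 169 ± 9.66 TPM in irradiated and 162 ± 8.87 TPM in control tumors (0.06, adjusted p = 0.816). Of 12 genes of other caps, an inhibitor and assembly factors, 0 passed in limma, 2 had an unadjusted p under 0.05, against 20.5% of all tested genes, and 10 had a fold change below 0 (median -0.13). ECPAS, a proteasome adaptor, was lowest (-0.74, adjusted p = 0.0770) and the inhibitor PSMF1 highest (0.16, adjusted p = 0.527). POMP, the assembly factor that immunoproteasome maturation depends on, was at 72.3, 81.1 and 73.8 TPM in irradiated tumors, all below the controls at 86.2, 112 and 89.7 TPM (-0.33, adjusted p = 0.248). PSMB11, the catalytic subunit of the thymus, was listed at 0 in every tumor.

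Among 16 other peptidases that trim or destroy peptides, 0 passed in limma and 7 had an unadjusted p under 0.05, against the same 20.5%. A fold change below 0 was found in 11 (median -0.21), beside 7872 of all 14140 tested genes. LAP3, a cytosolic leucine aminopeptidase, was highest, at 142, 121 and 101 TPM in irradiated tumors, all above the controls at 76.3, 53.8 and 87.7 TPM (0.75, adjusted p = 0.0960). TPP2, which cleaves long peptides downstream of the proteasome, was lowest, at 5.97, 7.50 and 5.88 TPM in irradiated tumors, against 11.7, 11.1 and 12.0 TPM in controls (-0.76, adjusted p = 0.0592).

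A list on induction of the immunoproteasome held interferon receptors, JAK-STAT, IRF and NF-kB genes, NLRC5 and SOCS1, and not every gene in it is an inducer. Its median fold change was 0.27, with 0 of 17 tested genes past the threshold in limma. At an unadjusted p under 0.05 there were 5, against 20.5% of all tested genes. IRF1, a transcription factor that binds the element shown above, was at 49.5, 54.0 and 63.5 TPM in irradiated tumors, all above the controls at 23.6, 22.8 and 41.4 TPM (0.95, adjusted p = 0.0755). NLRC5, the class I transactivator, was at 20.6, 17.3 and 16.0 TPM in irradiated tumors, against 14.7, 5.13 and 17.5 TPM in controls (0.64, adjusted p = 0.381). IRF8 was lowest (-0.53, adjusted p = 0.344).

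Of 12 genes of class I loading, which receives the peptides, 0 passed in limma. An unadjusted p under 0.05 was found in 5, again beside 20.5% of all tested genes. A fold change above 0 was found in 9 (median 0.41), beside 44.3% of all tested genes. TAP1 was at 149, 109 and 65.9 TPM in irradiated tumors and 41.4, 42.3 and 63.2 TPM in controls (1.08, adjusted p = 0.0942), while its partner TAP2 overlapped between groups (-0.15, adjusted p = 0.669). PDIA3, a chaperone of loading, was lowest (-0.24, adjusted p = 0.387). B2M, the light chain of class I, was at 1953, 1833 and 1207 TPM in irradiated tumors, against 1467, 2083 and 1937 TPM in controls.

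**Figure D5:**
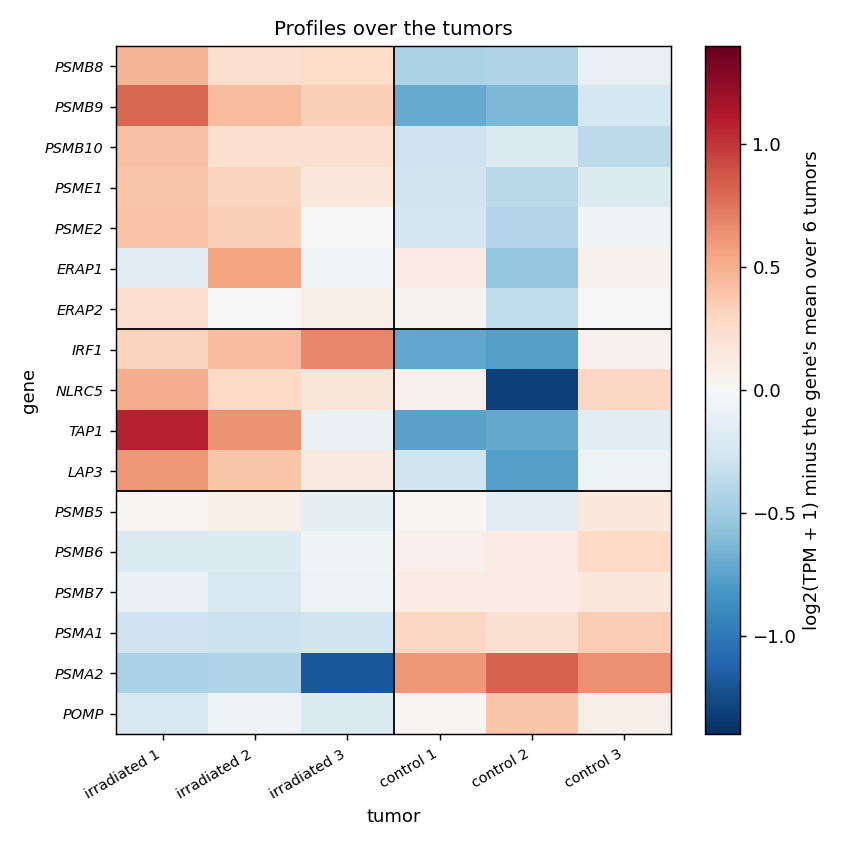
Log2(TPM + 1) minus each gene's mean over the 6 tumors, irradiated tumors left of the line and controls right. The top block holds the 7 genes, the middle block 4 genes of induction, loading and trimming, and the bottom block proteasome genes outside the inducible set. PSMB8, PSMB9, PSMB10 and PSME1 are above their means in all 3 irradiated tumors, and TAP1 is not in irradiated tumor 3.

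Likeness of profile was measured as the root mean square difference of log2(TPM + 1) over the 6 tumors after removing each gene's mean, among 13120 genes. The 5 genes nearest to PSMB9 were GMPR (0.113), SHISA5 (0.137), ADM2 (0.143), LGALS3BP (0.146) and RND1 (0.148), all nearer than PSMB8 (0.221). They were picked for this likeness, so their levels are given with no test. SHISA5 was at 483 ± 36.9 TPM in irradiated and 253 ± 32.8 TPM in control tumors, and GMPR at 21.4 ± 6.35 TPM in irradiated and 9.73 ± 1.64 TPM in control tumors (SD, n = 3 each). Among the 7 genes, PSME1 and PSME2 were the closest pair (0.0858), and PSMB9 and ERAP1 the farthest (0.552). The nearest gene was P2RX4 for PSMB8 (0.0462), FAM3A for PSMB10 (0.0624), MAPK8IP2 for PSME1 (0.0491), ERN1 for PSME2 (0.0494), TTYH3 for ERAP1 (0.0906) and OGFR for ERAP2 (0.0310). MAPK8IP2 was low, at 1.52 ± 0.160 TPM in irradiated and 0.617 ± 0.117 TPM in control tumors. With 0.1 TPM added in place of 1, its fold change was 1.18 rather than 0.64, while that of PSME1 stayed at 0.57. Its likeness to PSME1 thus rests in part on the amount added. The same holds for other pairs with a low gene. With 5 TPM added in place of 1, ADM2 was 0.78 rather than 1.26, while PSMB9 was 1.01 rather than 1.06. ERN1 was 0.25 rather than 0.44, while PSME2 was 0.48 rather than 0.49. ERAP2 was 0.11 rather than 0.21, while OGFR was 0.22 rather than 0.23. SHISA5, an abundant gene, was 0.92 rather than 0.93.

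Some facts of the tumors bear on all of these values. The depth behind TPM is unknown, and 13392 to 14218 genes reached 1 TPM in a tumor. Ribosomal protein genes took 27.0% of the TPM in control tumor 2, against 21.4% to 22.3% in irradiated tumors and 19.8% and 20.5% in the other controls. The 6 genes listed as present in MDA-MB-231 cells were above 0 in every tumor, and of 4 genes listed as low or absent there, ESR1 and PGR were at most 0.32 TPM. The other 2 were detected, ERBB2 at 32.7 to 34.3 TPM in irradiated and 25.4 to 40.7 TPM in control tumors and GATA3 at 2.63 to 4.30 TPM in irradiated and 1.91 to 3.90 TPM in control tumors. Leukocytes, which use immunoproteasomes constantly, had a summed marker level of 297 to 334 TPM in irradiated and 206 to 258 TPM in control tumors. This sum was mostly CD68 and LAPTM5. Of 12 markers, 10 to 11 were above 0 in irradiated and 10 in control tumors. At least 1 TPM was reached by 4 to 6 in irradiated and 5 to 6 in control tumors. CD68 was at 91.2 to 187 TPM in irradiated and 74.9 to 94.2 TPM in control tumors, and LAPTM5 at 133 to 218 TPM in irradiated and 116 to 137 TPM in control tumors, both overlapping. These were the 2 of 6 tested leukocyte markers with a fold change above 0 (0.61 for CD68 and 0.37 for LAPTM5). The other 4 were below 0, LYZ at -0.99, AIF1 at -0.42, CORO1A at -0.26 and CSF1R at -0.13. The median over the 6 was -0.20, 0 passed in limma, 1 had an unadjusted p under 0.05 and every one overlapped between the groups. Of the defining markers, TYROBP was at 0 in all tumors, CD53 at most 0.18 TPM and PTPRC at most 0.25 TPM in irradiated and 0.30 TPM in control tumors. Fibroblast markers summed to 131 to 214 TPM in irradiated and 474 to 1001 TPM in control tumors, with 7 and 5 to 6 of 7 above 0. This sum was mostly collagen. Of 5 tested fibroblast markers 3 fell, where 1.61% of all tested genes fell: COL1A1 (-1.96), COL1A2 (-2.07) and COL3A1 (-2.29). DCN was at -0.08, PDGFRB went the other way (0.95), and LUM and PDGFRA were at most 0.22 TPM in any tumor. Skeletal muscle markers summed to 0.640 to 78.4 TPM in irradiated and 117 to 329 TPM in control tumors, with 3 to 7 and 7 of 7 above 0. In all 7 every irradiated tumor was below every control tumor, as in 15.0% of all tested genes (median fold change -3.05). Of the 7, 3 fell, beside 1.61% of all tested genes: MYH1 (-2.99), MYH4 (-3.15) and CASQ1 (-2.22). Endothelial markers summed to 4.77 to 22.3 TPM in irradiated and 4.10 to 8.74 TPM in control tumors, with 7 to 8 and 7 of 8 above 0. Whether mouse reads were removed is not given in the sources used here, and the part of host cells in the results was not tested.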

How the data were processed

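The authors deposited 1 table of TPM for 60606 genes, with 1 column for each of the 6 tumors and 2 decimals. Per the submitters' processing notes, HISAT2, StringTie and RSEM were used with hg38, with no versions, and per the labels' protocols the libraries were made with a TruSeq RNA kit. TPM keeps no depth, so no counting intervals were given. No 2 columns were identical.

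The groups were set against each other in limma 3.58.1 (R 4.3.3, eBayes with trend, group only, two-sided, Benjamini-Hochberg over all tested genes) on log2(TPM + 1), a scale that understates changes of low genes, for the 14140 genes averaging 1 TPM or more. Ratios used exact two-sided permutation tests over tumors (SciPy 1.17.1). The fit was tried on simulated data with independent noise for each gene, a check of the code that gives no support to the results here. Coordinates come from GENCODE release 29 (GRCh38), which held 58396 of the gene identifiers and need not be the authors' annotation, and promoter windows from RefSeq.

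The genes and lists were chosen with earlier results of these data known. The text names the 7 genes and PSMB5, PSMB6 and PSMB7. It also names called genes and the highest and lowest fold change of each list, and the genes nearest in profile. A further 12 genes (IRF1, NLRC5, POMP, PSME3, PSME4, LNPEP, PSMB8-AS1, TAP2, B2M, CD68, LAPTM5 and ENSG00000256646), the marker genes and the ratios of PSMB9 to PSMB8, PSME1 to PSME2 and ERAP1 to ERAP2 were added after values were seen. One gene that the rule names is not reported here, in text or figures, and still counts in the totals of its list.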

Additional observations from a re-analysis of the deposited data

How the results depend on the processing

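Of 18 alternatives, 1 (without tumor 2 of both groups) was added after the data were seen. PSMB9 was called in 10 of the 18 (adjusted p 0.0135 to 0.0925), PSME1 in 5 (0.0264 to 0.194), PSMB8 in 4 (0.0364 to 0.199), PSMB10 in 3 (0.0262 to 0.219) and PSME2 in 0 (0.0828 to 0.346). Of the 7 genes, 0 were called without a filter on low values, without trend, with a replicate block, and without tumor 2 of both groups, 2 with a minimum mean of 5 TPM, 3 with quantile normalization or robust estimates, and 4 without mitochondrially encoded and ribosomal protein genes or with sample weights. Leaving out 1 tumor gave 0 to 2. The 421 calls over all genes became 133 without a filter, 279 without trend, 1064 with sample weights, 185 with a replicate block, 186 without tumors 2 of both groups and 127 to 791 without 1 tumor. The median fold change over all genes was -0.13 without control tumor 2 and -0.14 without tumor 2 of both groups. Same-numbered tumors did not deviate together (correlations -0.06 to -0.04), so the numbers are not known to pair the tumors. In this balanced design a block cannot move a mean difference, and leaving out a tumor cannot turn a difference between groups that do not overlap. Without 1 tumor the log2 ratio ranged from 0.60 to 0.77 for PSMB8 over PSMB5, from 1.21 to 1.52 for PSMB9 over PSMB6 and from 0.78 to 0.90 for PSMB10 over PSMB7.

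Of 822 values for 46 genes followed under alternatives, 12 turned in direction. PSMB5 was 0.03 with medians of ratios, 0.02 without mitochondrially encoded and ribosomal protein genes and -0.10 to 0.05 without 1 tumor. PSMA7 was -0.03 with quantile normalization, -0.01 to 0.08 without 1 tumor and -0.04 without tumors 2 of both groups, where ERAP1 was -0.18, TTYH3 -0.13 and LNPEP -0.08. Without 1 tumor B2M ranged from -0.30 to 0.06 and LNPEP from -0.02 to 0.29. The log2 ratio of ERAP1 to ERAP2 was 0.04 with 1 TPM added and -0.30 to 0.20 without 1 tumor. The causes were not tested.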

Other observations

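PSMA2, the core subunit with the largest fall, shares 781 exonic bases on the same strand with ENSG00000256646, which has no symbol in the deposited table. That gene was at 54.4, 60.6 and 31.7 TPM in irradiated tumors, against 10.49, 10.1 and 5.12 TPM in controls, with no overlap. It rose by 2.39 on the log2 scale (adjusted p = 0.00931 by limma), a call lost with no filter on low values (0.0605) and without tumor 2 of both groups (0.0532). Summed over both genes, the level was 106, 113 and 62.0 TPM in irradiated and 118, 135 and 115 TPM in control tumors, so irradiated tumors 1 and 2 came close to the controls and irradiated tumor 3 did not. PSMA1 also shares exons with an unnamed gene, ENSG00000256206, and their sum was 138, 136 and 140 TPM in irradiated and 202, 191 and 212 TPM in control tumors, still far apart. ENSG00000256646 also shares 1986 of its 3068 exonic bases with C7orf25 on the same strand. C7orf25 was at 4.40, 5.25 and 4.65 TPM in irradiated tumors, against 7.11, 5.45 and 6.16 TPM in controls. How reads were divided between such genes was not tested.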
